A study of Mus musculus with 22 samples.

Results

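The lecticans, their link proteins, the tenascins and their cell-surface partners were followed in sorted glia of the mouse cortex. The 10 genes were set by name: Ncan, Bcan, Vcan and Acan (lecticans), Hapln1 and Hapln2 (link proteins), Tnc and Tnr (tenascins), and Ptprz1 and Nrcam (membrane partners). They were 10 of 22485 genes with a named probe and held 15 of the 43020 probes of the table; each gene was read from its brightest probe by mean, taken over those samples where that probe had a value, and called here its main probe. For Tnc that probe had 12 values, 8 of them in astrocytes, and its other probe had 20. The samples were 4 of astrocytes from APPswe/PS1dE9 mice (written APP/PS1), 4 of astrocytes from WT mice, 7 of microglia from APP/PS1 mice and 7 of microglia from WT mice. All mice were C57BL/6, aged 15 to 18 months, and the WT mice were littermates; APP/PS1 mice carry mutant human amyloid precursor protein and presenilin transgenes and form amyloid plaques. Cells came from papain-dissociated cortex after myelin removal, and astrocytes were sorted as GLT1-positive, CD11b-negative cells and microglia as CD11b-positive, CD45-positive cells, per the labels. RNA was amplified, labelled with Cy3 or Cy5 and read on 11 two-colour Agilent arrays, each pairing an APP/PS1 with a WT sample of equal number from 1 cell type.

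Lecticans are chondroitin sulfate proteoglycans that bind hyaluronan with their N-terminal end and tenascin-R with their C-terminal end. Link proteins lock the lectican to hyaluronan, and the resulting mesh fills the space around neurons and condenses into perineuronal nets, the lattice that wraps many parvalbumin interneurons. Astrocytes are known as a main source of neurocan and brevican in the cortex, whereas aggrecan of the nets comes mainly from neurons and tenascin-R largely from cells of the oligodendrocyte lineage.

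Values are log2 signals of a probe, and they were compared between samples and never between probes. The sorted samples carried most markers of their label. All 10 astrocyte markers were higher in astrocytes, and 8 of 9 microglia markers tested were lower there (limma, adjusted p under 0.05). The exception was Itgam, which encodes the CD11b used for sorting (-0.50, adjusted p = 0.0514), named with its value known. The mean of 8 astrocyte markers measured in every sample ran from 12.64 to 14.67 log2 in astrocyte samples and from 6.80 to 8.43 in microglia samples, and the mean of 8 microglia markers ran from 7.38 to 10.96 in astrocyte samples and from 14.91 to 15.82 in microglia samples. Astrocyte samples also carried endothelial markers at 11.30 to 13.09 and mural markers at 10.84 to 14.91, against 5.83 to 8.00 and 4.78 to 7.13 in microglia samples. The 2 samples of an array did not match in the Y-linked gene Eif2s3y on astrocyte arrays 1 and 3 and on microglia array 1. All astrocyte arrays lay on slide 3 and all microglia arrays on slides 1 and 2, so the slide and the cell type of a sample cannot be told apart.

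The promoters of the 5 members that differed most between the cell types are shown first, because these genes also moved together in APP/PS1 astrocytes. Each is 300 bases, 250 before and 50 after the RefSeq gene start in GRCm38.p6, on the gene's own strand. Ncan lies at chr8:70120795-70121094 (minus strand), Bcan at chr3:88000307-88000606 (minus), Hapln1 at chr13:89540386-89540685 (plus), Ptprz1 at chr6:22875252-22875551 (plus) and Nrcam at chr12:44328635-44328934 (plus). Capitals mark the motifs searched on both strands: the NFI half-site TTGGC, the SOX core ACAAT, the GC box GGGCGG and the TATA box TATAAA; no matches overlapped.
Ncan: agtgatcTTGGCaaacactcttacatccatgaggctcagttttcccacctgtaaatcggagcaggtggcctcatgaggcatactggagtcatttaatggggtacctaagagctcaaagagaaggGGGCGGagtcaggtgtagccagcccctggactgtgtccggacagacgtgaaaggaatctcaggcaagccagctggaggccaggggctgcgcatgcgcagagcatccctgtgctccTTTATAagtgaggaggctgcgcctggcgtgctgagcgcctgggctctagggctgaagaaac
Bcan: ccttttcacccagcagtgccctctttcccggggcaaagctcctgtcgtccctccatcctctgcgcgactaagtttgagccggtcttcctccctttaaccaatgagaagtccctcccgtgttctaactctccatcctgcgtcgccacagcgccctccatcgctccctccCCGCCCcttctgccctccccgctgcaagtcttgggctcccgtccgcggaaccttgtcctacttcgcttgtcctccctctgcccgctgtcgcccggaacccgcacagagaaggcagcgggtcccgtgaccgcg
Hapln1: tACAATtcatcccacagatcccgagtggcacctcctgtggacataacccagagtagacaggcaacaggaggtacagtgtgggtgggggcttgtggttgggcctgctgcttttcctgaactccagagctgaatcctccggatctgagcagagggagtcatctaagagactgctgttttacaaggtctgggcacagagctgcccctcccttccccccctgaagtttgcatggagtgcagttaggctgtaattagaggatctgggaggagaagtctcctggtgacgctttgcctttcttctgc
Ptprz1: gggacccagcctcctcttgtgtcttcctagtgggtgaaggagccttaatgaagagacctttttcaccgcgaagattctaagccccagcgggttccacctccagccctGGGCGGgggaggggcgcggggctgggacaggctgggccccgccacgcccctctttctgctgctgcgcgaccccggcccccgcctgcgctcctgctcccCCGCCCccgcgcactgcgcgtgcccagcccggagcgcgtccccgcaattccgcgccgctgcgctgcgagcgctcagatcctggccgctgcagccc
Nrcam: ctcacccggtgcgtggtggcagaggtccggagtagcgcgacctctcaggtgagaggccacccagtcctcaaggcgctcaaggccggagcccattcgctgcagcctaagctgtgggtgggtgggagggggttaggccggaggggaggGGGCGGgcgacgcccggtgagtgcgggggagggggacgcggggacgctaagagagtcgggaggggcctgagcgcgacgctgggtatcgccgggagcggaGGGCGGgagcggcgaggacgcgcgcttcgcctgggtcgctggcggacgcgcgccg

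A GC box was found in 4 of these 5 promoters, those of Ncan, Bcan, Ptprz1 and Nrcam, and in 35.7% of 32851 mouse promoters of the same length. Among the other members, Vcan, Acan and Tnc also held a GC box, while Hapln2 and Tnr did not. Hapln1 alone of the 5 held a SOX core, found in 31.0% of promoters. Ncan alone held an NFI half-site (46.7%) and the letters of the TATA box (13.6%). Those letters, marked as TTTATA, lay on the strand opposite to the gene, so they are a letter match only. The GC content of the 5 windows was 54.3% to 74.0%, against a median of 52.7% over all promoters, so Ptprz1 (71.7%) and Nrcam (74.0%) were rich in the letters of the GC box. No motif was common to all 5. In the genome each of the 4 lecticans has a link protein gene as its neighbour with 0 protein-coding genes between them: Vcan with Hapln1 on chromosome 13, Bcan with Hapln2 on chromosome 3, Acan with Hapln3 on chromosome 7 and Ncan with Hapln4 on chromosome 8.

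Astrocytes carried far more signal than microglia for 5 members. Over both genotypes, the astrocyte minus microglia difference was 5.45 ± 0.27 log2 for Ncan, 7.75 ± 0.40 for Bcan, 6.13 ± 0.37 for Hapln1, 9.20 ± 0.41 for Ptprz1 and 8.35 ± 0.38 for Nrcam (SE; limma, adjusted p of 1.2e-11 or less for each). No astrocyte sample of these 5 genes overlapped any microglia sample, though the share of all genes for which this holds was not counted. Tnr was higher in astrocytes by 0.85 ± 0.29 (adjusted p = 0.0161) and Hapln2 was lower (-1.08 ± 0.44, adjusted p = 0.0445). In all, 6 of 10 members were higher in astrocytes and 1 lower, where 55.8% of all genes tested were called in either direction, 37.0% higher and 18.8% lower. Among WT samples alone 5 members were called (51.1% of all genes), each higher in astrocytes, and neither Tnr (0.45, adjusted p = 0.0759) nor Hapln2 (-0.76, adjusted p = 0.144) was among them. With slide in place of array as the random block, Tnr (adjusted p = 0.301) and Hapln2 (adjusted p = 0.332) also lost the call.

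The remaining members had no called difference between cell types on their main probe. Vcan differed by 0.22 log2 (95% interval -0.20 to 0.63), Acan by -0.27 (-0.60 to 0.05) and Tnc by 0.71 (-0.93 to 2.35). Acan, the aggrecan gene, kept within 5.14 to 6.04 log2 over all 22 samples. The main probe of Tnc was blank on 5 of 7 microglia arrays, and Hapln2 on 1 of 7.

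**Figure D1:**
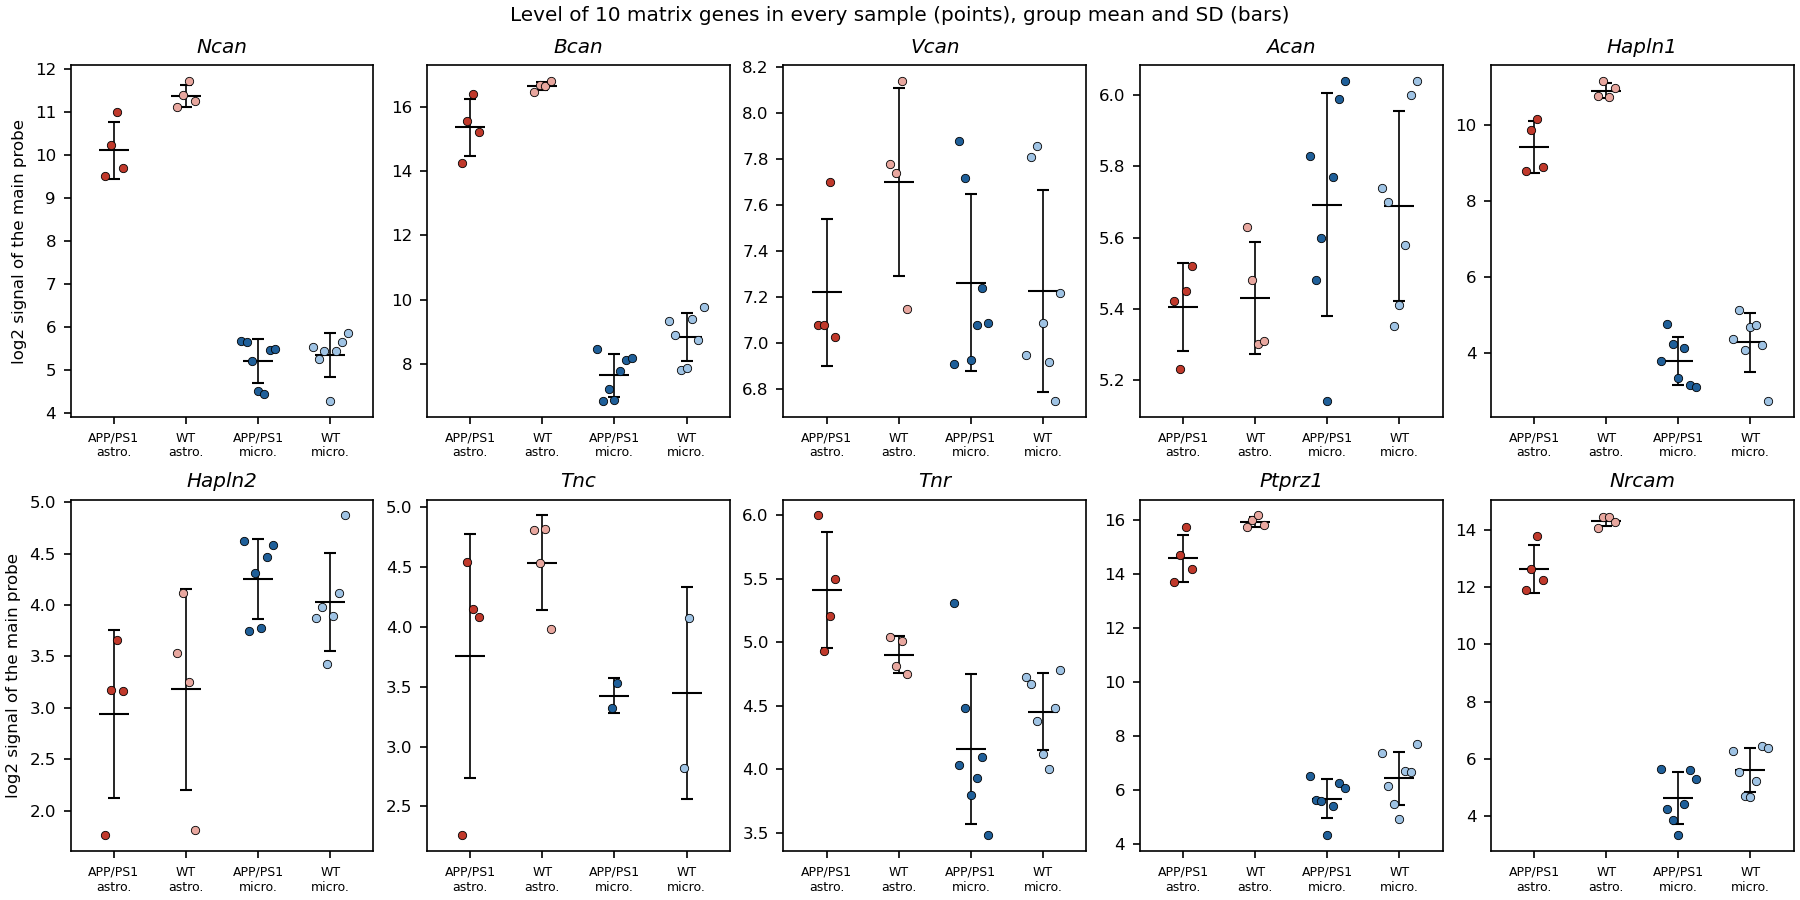
Log2 signal of the main probe of each of the 10 genes in every sample (points), by group, with the group mean and SD (bars); each panel has its own vertical axis. Ncan, Bcan, Hapln1, Ptprz1 and Nrcam lie far higher in astrocytes, and their APP/PS1 astrocyte samples spread more widely than their WT astrocyte samples.

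Of the 10 members, 6 were lower and 0 higher in APP/PS1 astrocytes (limma, adjusted p under 0.05), where 33.4% of all genes tested were called, 15.4% higher and 18.0% lower. The median difference over the members was -1.02 log2, against -0.07 over all genes tested. Called members were Ncan, Bcan, Vcan, Hapln1, Ptprz1 and Nrcam. Without the array term in the model 3 members were called (10.9% of all genes), and in a fit of astrocytes alone 2 (12.6%). In sorted bulk samples, fewer cells of a type and less RNA per cell cannot be told apart.

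Among the lecticans, Ncan (neurocan, secreted by astrocytes and neurons) had 9.52, 10.23, 11.00 and 9.70 log2 in APP/PS1 astrocytes 1 to 4, against 11.13, 11.40, 11.72 and 11.26 in WT astrocytes 1 to 4. Every APP/PS1 sample lay below every WT sample. The fitted difference was -1.27 ± 0.19 (SE, 4 arrays), a 2.41-fold lower signal (adjusted p = 0.000968), and the arrays ranged from -1.61 to -0.72; a value below 0 on all 4 astrocyte arrays was found for 24.6% of genes measured on all of them. Ncan kept its call under all 20 alternatives tried, closest to the threshold in astrocytes alone (adjusted p = 0.0455). The alternatives that left out a microglia array did not move the estimate of -1.27, since array was a fixed block.

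Bcan (brevican, an abundant lectican of the adult brain) had 14.25, 15.57, 16.39 and 15.21 log2 in APP/PS1 astrocytes, against 16.46, 16.68, 16.63 and 16.79 in WT astrocytes. The groups did not overlap, though APP/PS1 sample 3 came within 0.24 of its WT partner on this probe. On the second probe of Bcan array 3 was at -0.99, and the fitted difference was -1.72 (adjusted p = 0.0025). On the main probe the difference was -1.29 ± 0.32 (adjusted p = 0.0114). That call was lost without array 1 (-0.98, adjusted p = 0.0656) or array 4 (-1.13, adjusted p = 0.0563). It was also lost without the array term (adjusted p = 0.0866) and in astrocytes alone (adjusted p = 0.0728).

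Vcan (versican, made in several splice forms by oligodendrocyte precursors and other cells) had 7.08, 7.08, 7.70 and 7.03 log2 in APP/PS1 astrocytes, against 7.78, 7.74, 8.14 and 7.15 in WT astrocytes. It was lower on 4 of 4 arrays, and the groups overlapped. The difference of -0.48 ± 0.11 (adjusted p = 0.00838) was not called without the array term (adjusted p = 0.335) or in astrocytes alone (adjusted p = 0.0737). Acan showed 5.42, 5.23, 5.45 and 5.52 log2 in APP/PS1 astrocytes, against 5.63, 5.48, 5.30 and 5.31 in WT astrocytes. Its difference was -0.03, with a 95% interval from -0.29 to 0.24, lower on 2 of 4 arrays.

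Of the link proteins, Hapln1 (the link protein of perineuronal nets) had 8.79, 9.86, 10.16 and 8.89 log2 in APP/PS1 astrocytes, against 10.76, 11.15, 10.73 and 10.97 in WT astrocytes. The groups did not overlap and the difference was -1.48 ± 0.30, a 2.79-fold lower signal (adjusted p = 0.00401), not called in astrocytes alone (adjusted p = 0.0561). Hapln2 (the brain link protein found at nodes of Ranvier) had 1.76, 3.17, 3.66 and 3.16 log2 in APP/PS1 astrocytes, against 3.53, 4.12, 3.25 and 1.81 in WT astrocytes. Its arrays ran from -1.77 to 1.36, and the fitted -0.24 (95% interval -1.15 to 0.67) was not called.

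The tenascins did not pass the threshold in astrocytes. Tnr (tenascin-R, which crosslinks lecticans in the nets) had 6.00, 4.93, 5.21 and 5.50 log2 in APP/PS1 astrocytes, against 5.04, 4.81, 5.01 and 4.75 in WT astrocytes. It was the only member higher in APP/PS1 on 4 of 4 astrocyte arrays, by 0.51 with an interval from -0.07 to 1.09 (adjusted p = 0.166), and its groups overlapped. Tnc (tenascin-C, a developmental and injury-related matrix protein) had 2.26, 4.54, 4.15 and 4.08 log2 in APP/PS1 astrocytes, against 4.81, 4.53, 4.82 and 3.98 in WT astrocytes. Array 1 alone was at -2.55, and the fitted -0.78 had an interval from -2.13 to 0.57; without array 1 it was -0.09.

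Both membrane partners were lower in APP/PS1 astrocytes. Ptprz1, a receptor tyrosine phosphatase whose secreted splice form is the proteoglycan phosphacan, had 13.69, 14.69, 15.73 and 14.15 log2 in APP/PS1 astrocytes, against 15.72, 15.99, 16.15 and 15.79 in WT astrocytes. APP/PS1 sample 3 lay just above the lowest WT sample, and the other 3 lay below all WT samples. The difference was -1.35 ± 0.27 (adjusted p = 0.00402), lower on 4 of 4 arrays. It was not called without the array term (adjusted p = 0.119) or in astrocytes alone (adjusted p = 0.0534).

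Nrcam, a cell adhesion molecule of the L1 family, had 11.88, 12.64, 13.79 and 12.24 log2 in APP/PS1 astrocytes, against 14.05, 14.44, 14.46 and 14.28 in WT astrocytes. The groups did not overlap. At -1.67 ± 0.22, a 3.18-fold lower signal (adjusted p = 0.000515), it had the largest difference of the 10 main probes in astrocytes. Nrcam kept its call under all 20 alternatives tried, though narrowly in astrocytes alone (adjusted p = 0.0459) and without the array term (adjusted p = 0.0464). Leaving out a microglia array did not move its estimate. On their main probes, Ncan, Bcan, Hapln1 and Nrcam were the 4 members with every APP/PS1 astrocyte sample below every WT astrocyte sample, which held for 11.0% of all genes measured in every astrocyte sample.

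**Figure D2:**
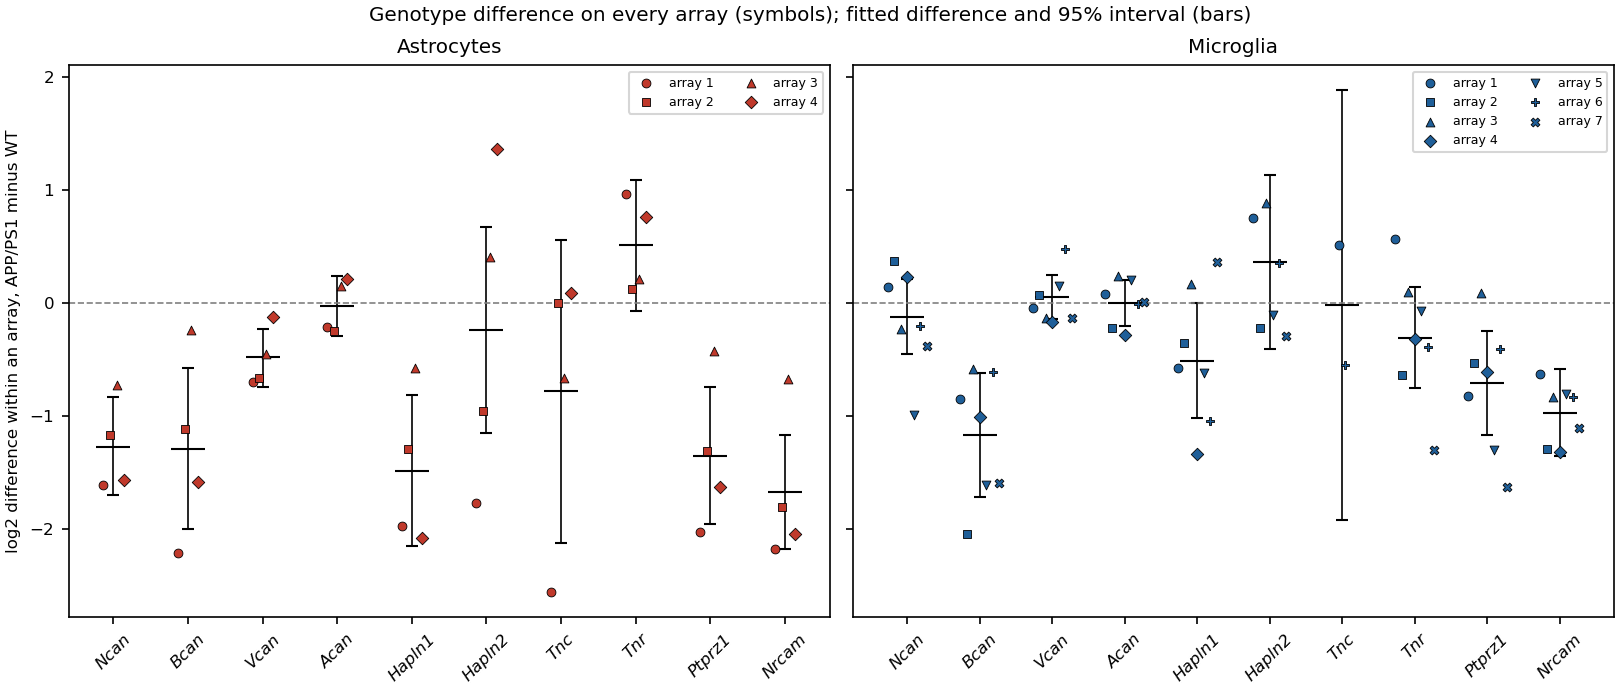
Log2 difference of APP/PS1 minus WT on each array (symbols, 1 per array) for the main probe of the 10 genes, in astrocytes (left) and microglia (right), with the fitted difference and its 95% interval (bars). In astrocytes Ncan, Bcan, Vcan, Hapln1, Ptprz1 and Nrcam lie below 0 on 4 of 4 arrays, with array 3 nearest to 0 for all of these except Vcan.

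The 5 astrocyte-high members varied together across the APP/PS1 astrocyte samples. In all 5, APP/PS1 sample 1 was the lowest, followed by samples 4, 2 and 3. Among WT astrocytes 3 of the 5 kept that order, and the SD over samples was 0.66 to 0.89 log2 in APP/PS1 astrocytes, against 0.14 to 0.25 in WT astrocytes. Their median within-array difference was -2.02 on array 1, -1.29 on array 2, -0.57 on array 3 and -1.63 on array 4.

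Markers of several cell types moved on the same arrays. Of 10 astrocyte markers, 9 were lower and 1 higher in APP/PS1 astrocyte samples, among them Aldoc (-1.36) and Slc1a3 (-1.62), and the median of the list was -2.28, -1.66, -0.32 and -1.59 on arrays 1 to 4. Gfap, which encodes a filament protein abundant in reactive astrocytes, was the marker that rose (1.90), and Slc1a2, which encodes the GLT1 used for sorting, was lower (-1.23); both are named with their values known. Of 9 microglia markers tested, 7 were higher and 1 lower, with Csf1r at 1.61 and Cx3cr1 at 2.04. The lower one was Itgam, at -0.59. The list median was 3.38, 1.64, 1.46 and 0.10 on arrays 1 to 4. The 8 microglia markers measured in every sample averaged 8.74 to 10.96 log2 in APP/PS1 astrocyte samples, against 7.38 to 8.92 in WT astrocyte samples. All 6 endothelial markers rose (Flt1 0.90, Cldn5 1.02), and their mean level was 12.21 to 13.09 in APP/PS1 astrocyte samples, against 11.30 to 12.22 in WT astrocyte samples. Of 7 mural markers 5 rose (Tagln 2.00, Acta2 1.83), at 12.87 to 14.91 in APP/PS1 astrocyte samples, against 10.84 to 13.46 in WT astrocyte samples. Of 8 oligodendrocyte precursor markers, 1 rose and 2 fell (Cspg4 2.38, Olig1 -1.62). The part of these cell types in the lower matrix values was not tested.

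**Figure D3:**
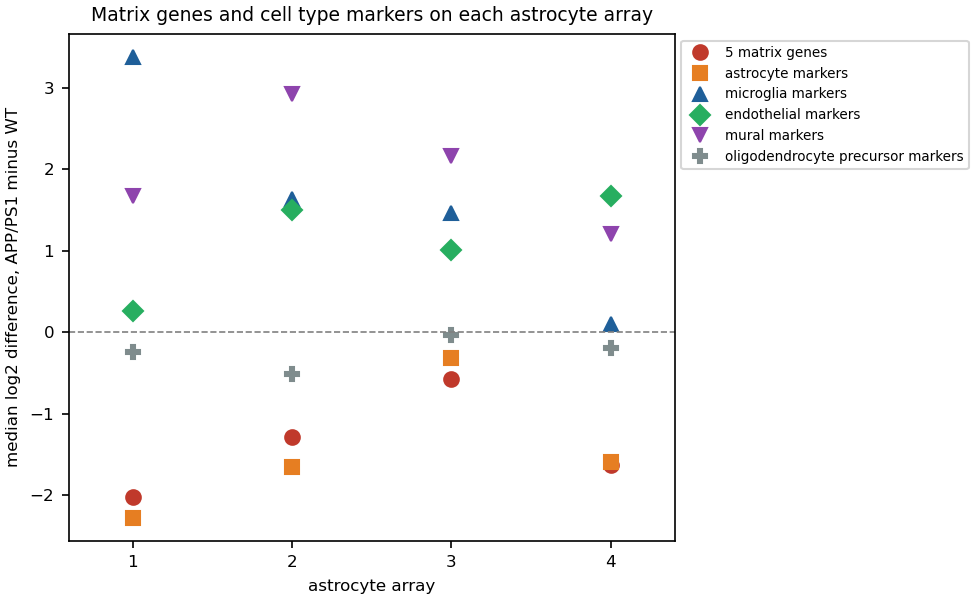
Median log2 difference of APP/PS1 minus WT on each of the 4 astrocyte arrays for Ncan, Bcan, Hapln1, Ptprz1 and Nrcam together and for 5 lists of cell type markers. The matrix genes and the astrocyte markers lie closest to 0 on array 3, at -0.57 and -0.32, while microglia, endothelial and mural markers lie above 0 on all 4 arrays.

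On the 2 astrocyte arrays whose samples matched in Eif2s3y, 4 members were called lower, where 19.8% of all genes were called. Vcan (-0.39, adjusted p = 0.178) and Bcan (-1.35, adjusted p = 0.053) lost their calls there. This restriction was chosen after the values were seen and leaves fewer samples.

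In microglia samples 3 of the 10 members were lower in APP/PS1 and 0 higher (limma, adjusted p under 0.05), where 19.7% of all genes tested were called, 8.27% higher and 11.4% lower. Without the array term 0 were called (5.29% of all genes), as on slide 1 alone (6.83%) and on slide 2 alone (2.62%), and 4 had an unadjusted p under 0.05 with it. The median over the members was -0.21 log2, against -0.04 over all genes. All 3 were genes with far higher signal in astrocytes.

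Bcan ran from 6.86 through a median of 7.80 to 8.48 log2 in APP/PS1 microglia, against 7.82, 8.90 and 9.79 in WT microglia. It was lower on 7 of 7 arrays, as were 15.1% of genes measured on all of them, and the groups overlapped. Its difference was -1.17 ± 0.24 (adjusted p = 0.0079), with -1.31 on slide 1 alone (adjusted p = 0.0791) and -0.90 on slide 2 alone (adjusted p = 0.239).

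Nrcam ran from 3.34 through 4.44 to 5.65 log2 in APP/PS1 microglia, against 4.66, 5.55 and 6.44 in WT microglia. It too was lower on 7 of 7 arrays, by -0.97 ± 0.17 (adjusted p = 0.00335). On slide 1 the value was -1.06 (adjusted p = 0.058) and on slide 2 it was -0.79 (adjusted p = 0.23).

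Ptprz1 ran from 4.31 through 5.61 to 6.51 log2 in APP/PS1 microglia, against 4.92, 6.64 and 7.68 in WT microglia. It was lower on 6 of 7 arrays, by -0.71 ± 0.21 (adjusted p = 0.0377), with -0.59 on slide 1 (adjusted p = 0.286) and -0.83 on slide 2 (adjusted p = 0.22). The call was lost when any microglia array except array 3, or astrocyte array 2, was left out (adjusted p up to 0.0977).

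Astrocyte markers moved in the same microglia samples: 4 of 10 were lower and 1 higher in APP/PS1. Their median difference was between -0.90 and -0.03 on the 7 microglia arrays, and the 8 measured in every sample averaged 6.80 to 7.98 log2 in APP/PS1 microglia samples, against 7.27 to 8.43 in WT microglia samples. Of 9 neuron markers, 5 were lower and 1 higher in the same samples, with a median difference between -1.11 and -0.23 on the 7 arrays. The part of astrocyte or neuron RNA in the microglia values of these 3 genes was not tested.

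The other members were not called in microglia. Ncan had 4.46 to 5.69 log2 in APP/PS1 microglia, against 4.29 to 5.88 in WT microglia, a difference of -0.12 (95% interval -0.45 to 0.21). Vcan differed by 0.05 (-0.14 to 0.24) and Acan by 0.00 (-0.20 to 0.20). Hapln1 was lower on 5 of 7 arrays, at -0.51 (adjusted p = 0.158). Tnr was at -0.31 (-0.75 to 0.14) and Hapln2, over 6 arrays, at 0.36 (-0.41 to 1.13). Tnc had values on 2 arrays, and its fitted -0.02 had an interval from -1.93 to 1.89.

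Whether the genotype difference itself differed between astrocytes and microglia was tested by an interaction term. Of the 10 members 2 were called, where 26.6% of all genes tested were called. The astrocyte difference minus the microglia difference was -1.15 ± 0.24 for Ncan (adjusted p = 0.0071) and -0.53 ± 0.14 for Vcan (adjusted p = 0.0197). For Bcan it was -0.12, with an interval from -1.02 to 0.78, for Nrcam -0.70 (-1.33 to -0.07, adjusted p = 0.0959), for Hapln1 -0.97 (-1.81 to -0.13, adjusted p = 0.0853) and for Ptprz1 -0.64 (-1.40 to 0.13). Tnr ran the other way, at 0.81 (0.08 to 1.54, adjusted p = 0.0957). Without the array term 0 members were called. Vcan lost its call without astrocyte array 1 (adjusted p = 0.0646) or 2 (adjusted p = 0.0605). Without astrocyte array 3 Hapln1 (-1.36, adjusted p = 0.011) and Nrcam (-1.06, adjusted p = 0.00194) were called as well. Without microglia array 1 Tnr was also called (0.94, adjusted p = 0.0498). The 2 sides of the Ncan term lay at unlike levels, with means of 5.22 and 5.37 log2 in APP/PS1 and WT microglia, against 10.11 and 11.38 in astrocytes.

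Probes of the same gene differed for Vcan and Tnc. The probe of Vcan with the highest mean, used above, gave nearly equal signal in both cell types, whereas its probe 2 was 4.13 ± 0.53 log2 higher in astrocytes (adjusted p = 4.08e-06) and probe 3 was 1.52 ± 0.29 higher (adjusted p = 0.00125; probes are numbered by mean signal). Vcan probe 2 had 5.77, 5.92, 6.95 and 5.76 log2 in APP/PS1 astrocytes, against 7.14, 7.01, 7.57 and 6.90 in WT astrocytes. Its difference was -1.06 (95% interval -2.19 to 0.08, adjusted p = 0.15). On Vcan probe 3 the groups did not overlap, with 3.54, 3.17, 4.30 and 3.53 log2 in APP/PS1 astrocytes, against 4.99, 5.18, 5.06 and 4.71 in WT astrocytes, and the difference was -1.35 ± 0.19 (adjusted p = 0.00645). The astrocyte minus microglia genotype difference was -0.31 on probe 2 (-1.84 to 1.22, adjusted p = 0.788), not called, and -1.33 on probe 3 (-2.18 to -0.48, adjusted p = 0.0466). Which splice form each probe reads was not analysed here.

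For Tnc the second probe was 2.17 ± 0.35 log2 higher in astrocytes (adjusted p = 2.79e-05). It had 4.83, 4.89, 4.22 and 4.11 log2 in APP/PS1 astrocytes, against 5.39, 5.15, 5.43 and 4.95 in WT astrocytes. These groups did not overlap, yet the difference of -0.72 (95% interval -1.47 to 0.03) was not called (adjusted p = 0.141). For Bcan and Ptprz1 the second probe gave the same calls as the main probe in astrocytes (-1.72 ± 0.29 and -1.45 ± 0.25) and in microglia (-1.01 ± 0.25 and -0.65 ± 0.19). The astrocyte minus microglia genotype difference on the second probe of Bcan was -0.71 (-1.58 to 0.16, adjusted p = 0.228), against -0.12 on its main probe. On the second probe of Ptprz1 it was -0.80 (-1.50 to -0.11, adjusted p = 0.0934). Neither was called.

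**Figure D4:**
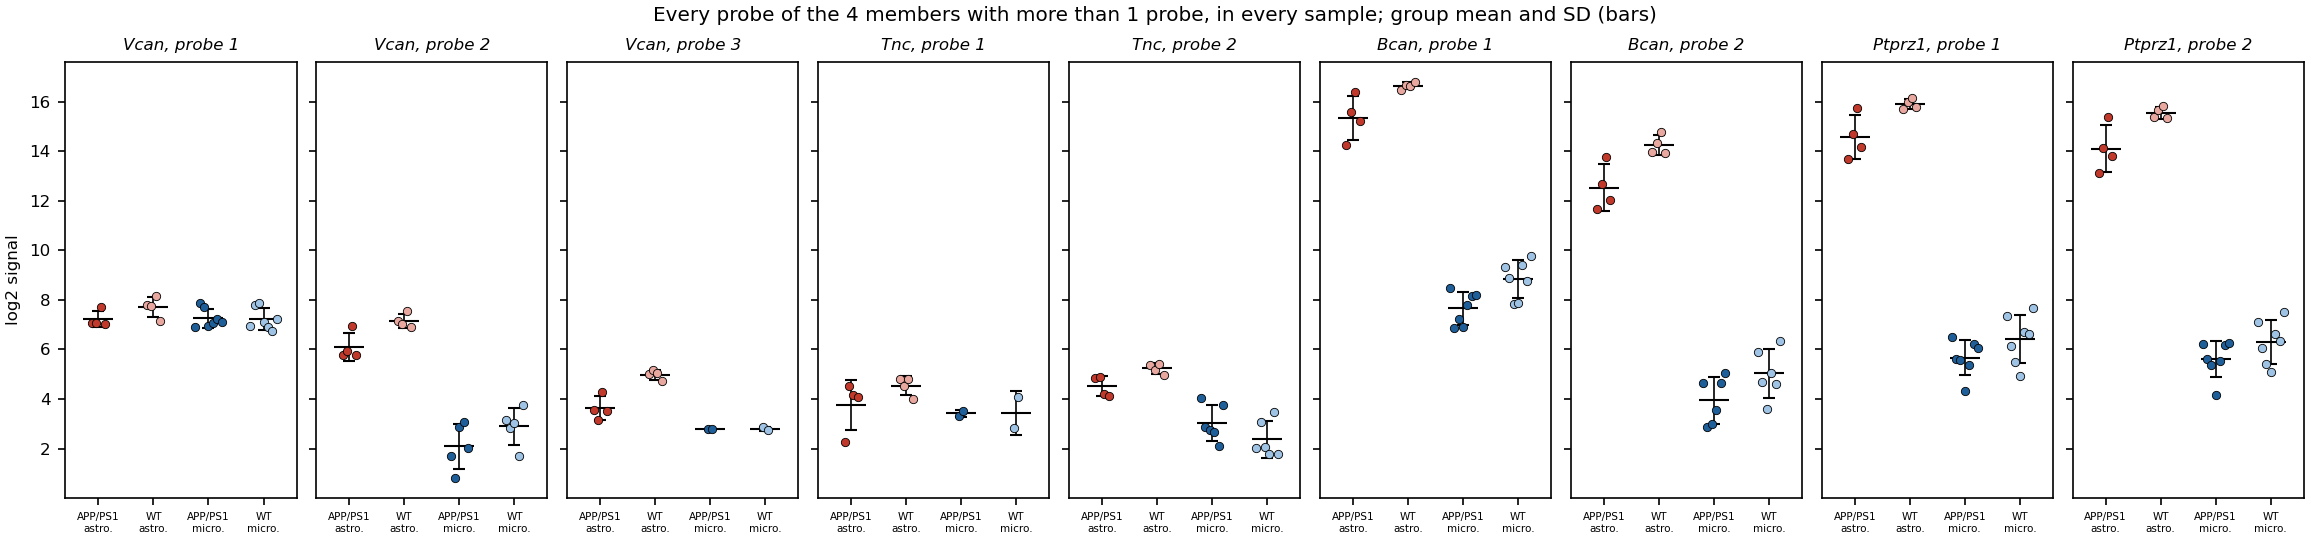
Log2 signal of every probe of Vcan, Tnc, Bcan and Ptprz1 in every sample (points), by group, with the group mean and SD (bars); probes of a gene are numbered by mean signal. Vcan probe 1 lies at like levels in the 4 groups, while Vcan probe 2 is 4.13 log2 higher in astrocytes; samples in which a probe was blank have no point.

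The genes around these members, which make, bind and cut the same matrix, changed in both directions. Of 83 such genes tested, 20 were higher and 21 lower in APP/PS1 astrocytes, and 10 were higher and 12 lower in APP/PS1 microglia. Over all genes tested, 15.4% were called higher and 18.0% lower in astrocytes, and 8.27% higher and 11.4% lower in microglia; the counts of each list below stand against these shares. The genes named from these lists are the up to 3 with the smallest adjusted p in each list.

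Chondroitin sulfate synthesis had 4 of 21 genes higher and 7 lower in APP/PS1 astrocytes, with a list median of -0.29 log2. Chst15, a sulfotransferase that adds a further sulfate to the chain, rose by 1.11 ± 0.12 (adjusted p = 0.00021), and Csgalnact2, which starts the chain, rose by 0.82 ± 0.11 (adjusted p = 0.000551). B3galt6, an enzyme of the linkage region, fell (-0.61 ± 0.08, adjusted p = 0.000572). Chst15 was lower in astrocytes than in microglia (-1.53), and 7 of 9 microglia markers rose in the same APP/PS1 astrocyte samples; their part was not tested. In APP/PS1 microglia 3 of the 21 were higher and 5 lower. Chst3, the chondroitin 6-O-sulfotransferase, averaged 9.24 ± 0.36 log2 in APP/PS1 microglia and 5.76 ± 0.60 in WT microglia (SD, n = 7 each), a rise of 3.48 ± 0.15 (SE; adjusted p = 1.35e-06). Chst11, a 4-O-sulfotransferase, rose by 1.17 ± 0.11 (adjusted p = 9.25e-05) and Chst7, another 6-O-sulfotransferase, fell (-0.97 ± 0.08, adjusted p = 3.64e-05). Astrocytes minus microglia, the genotype difference was -2.81 for Chst3 (adjusted p = 0.000103), -1.48 for Chst11 (adjusted p = 0.000438) and 1.41 for Chst15 (adjusted p = 0.000202).

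Among other proteoglycans, 5 of 17 were higher and 3 lower in APP/PS1 astrocytes. Cspg4, which encodes NG2 of pericytes and oligodendrocyte precursors, rose by 2.38 ± 0.32 (adjusted p = 0.00049), and Hspg2, which encodes perlecan of the basement membrane, rose by 1.19 ± 0.14 (adjusted p = 0.000305). Cspg5, the neuroglycan C gene, fell (-1.35 ± 0.24, adjusted p = 0.0023). In the same APP/PS1 astrocyte samples 6 of 6 endothelial and 5 of 7 mural markers rose, Cspg4 being itself a mural marker. Cspg5 was higher in astrocytes than in microglia (8.13), and 9 of 10 astrocyte markers fell in these samples. The part of these cell types was not tested. In APP/PS1 microglia 3 of 17 were higher and 1 lower: the cell-surface heparan sulfate proteoglycans Sdc3 (1.23 ± 0.08, adjusted p = 7.74e-06) and Sdc4 (1.99 ± 0.16, adjusted p = 2.58e-05) rose, and so did Cspg4 (2.36 ± 0.24, adjusted p = 0.000141).

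Of 14 lectican proteases and inhibitors, 5 were higher and 2 lower in APP/PS1 astrocytes. Adamts1, a protease that cuts lecticans, rose by 1.19 ± 0.15 (adjusted p = 0.000431), Timp4, a metalloprotease inhibitor, fell (-1.43 ± 0.17, adjusted p = 0.000344), and Mmp14, a membrane-bound metalloprotease, fell (-0.75 ± 0.12, adjusted p = 0.00104). Adamts4, Adamts8 and Adamts15, named with their values known, also rose, by 1.86, 1.92 and 1.99. Adamts5 (1.07, adjusted p = 0.0682) and Adamts9 (-0.45, adjusted p = 0.315) were not called. Timp4 was higher in astrocytes than in microglia (5.95). In the same APP/PS1 astrocyte samples 6 of 6 endothelial and 5 of 7 mural markers rose, and 9 of 10 astrocyte markers fell. The part of these cell types was not tested. In APP/PS1 microglia 3 of the 14 genes were higher and 1 lower. Adamts1 rose there by 1.03 ± 0.12 (adjusted p = 0.000247), Mmp14 rose by 0.33 ± 0.09 (adjusted p = 0.0283) and Mmp2, a gelatinase, fell (-0.63 ± 0.10, adjusted p = 0.00164).

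Of 18 matrix receptors and neural adhesion genes, 5 were higher and 9 lower in APP/PS1 astrocytes. Integrin subunits had the smallest adjusted p of the list: Itga9, part of a tenascin-C receptor, rose by 1.43 ± 0.12 (adjusted p = 0.000115), Itgb1 by 1.44 ± 0.16 (adjusted p = 0.000242) and Itgb3 by 1.27 ± 0.12 (adjusted p = 0.000156). The second probe of Itgb3 was at -0.08 and not called. Itga9 and Itgb3 were lower in astrocytes than in microglia (-1.79 and -3.44), and 7 of 9 microglia markers rose in the same APP/PS1 astrocyte samples; their part was not tested. In APP/PS1 microglia 0 were higher and 4 lower, with Itga9 at -1.12 ± 0.09 (adjusted p = 2.74e-05), Itgav at -0.53 ± 0.09 (adjusted p = 0.00217) and Egfr, over the 5 arrays with values, at -0.77 ± 0.16 (adjusted p = 0.0108). Of the 11 other probes of Egfr, 3 were called, each lower. For Itga9 the astrocyte difference minus the microglia difference was 2.56 ± 0.15 (adjusted p = 1.85e-05).

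Of 11 hyaluronan genes tested, 1 was called in astrocytes and 2 in microglia. Has2, a hyaluronan synthase, rose in astrocytes (0.83 ± 0.24, adjusted p = 0.025). Its signal was low, averaging 3.71 log2 in APP/PS1 and 2.88 in WT astrocytes. On the 6 microglia arrays with values it averaged 2.94 in APP/PS1 and 2.86 in WT samples. In microglia Cd44, the hyaluronan receptor, rose by 0.60 ± 0.15 (adjusted p = 0.0201), though none of its 3 other probes was called, and Hyal2, a hyaluronidase, fell (-0.41 ± 0.10, adjusted p = 0.018). Neither of the 2 other tenascins, Tnxb and Tnn, was called in either cell type.

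**Figure D5:**
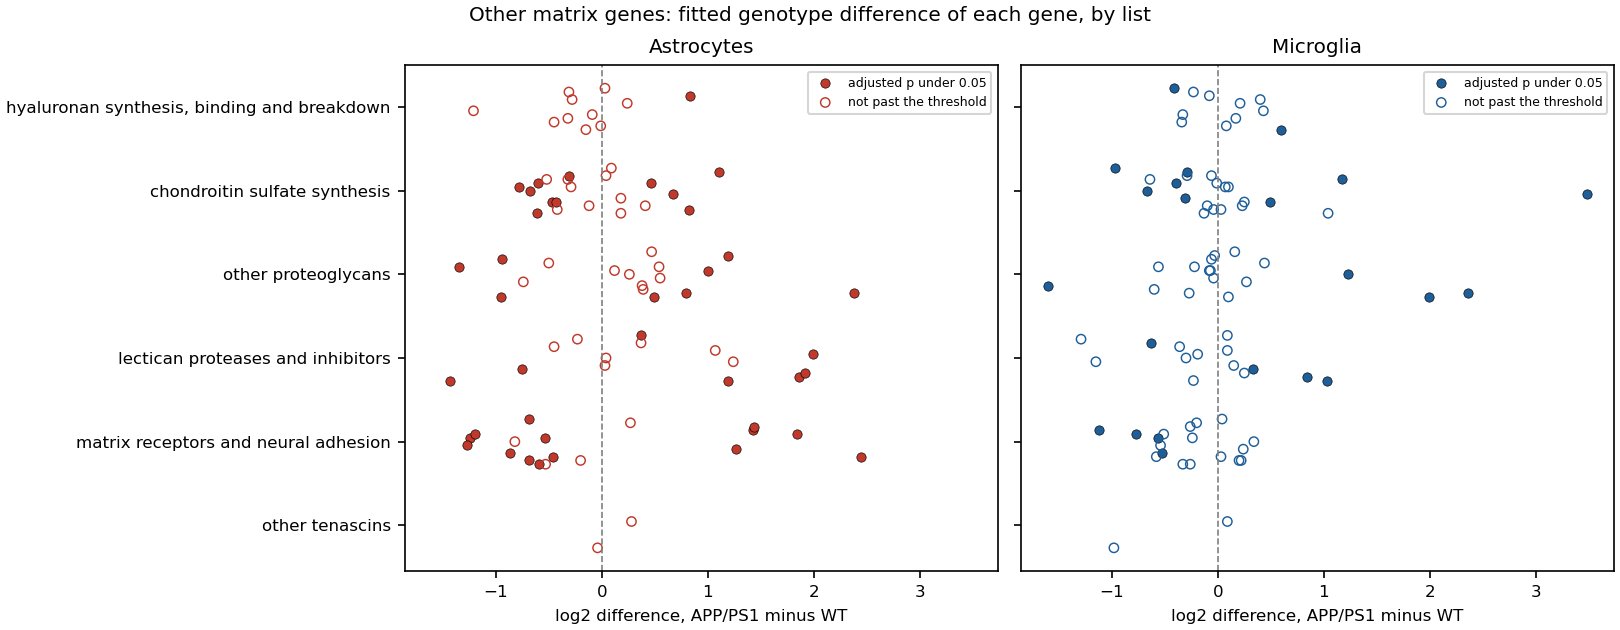
Fitted log2 difference of APP/PS1 minus WT for each of the 83 other matrix genes, by list (rows), in astrocytes (left) and microglia (right); filled points passed the adjusted p threshold. Points lie on both sides of 0 in the lists of 11 or more genes, and the farthest is Chst3 in microglia at 3.48.

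Genes with the most similar profile to each member were sought among 16310 genes with a value in all 22 samples, as the smallest root mean square difference of values centred on each gene's own mean. For Nrcam they were Dbx2 (0.23 log2), Mmd2 (0.28) and Cyp2j9 (0.31), for Ncan Tmem25, Coro2b and Hopx (0.28 each), and for Bcan Htra1 (0.28), Ngef (0.31) and Acsbg1 (0.31). For Ptprz1 they were Slc7a10 (0.32), Ntsr2 (0.35) and Slc1a2 (0.36), and for Hapln1 Gpr37l1 (0.45), Gm715 (0.61) and Paqr6 (0.62). These members themselves varied by 2.69 to 4.51 log2 about their means, nearly all of it between the cell types. Vcan was nearest to Dpp6 (0.25), Cd164l2 (0.26) and 1700120K04Rik (0.27), Acan to Rab3gap2 (0.12), Tor1aip2 (0.13) and Rnf40 (0.14), and Tnr to Eln (0.30), Hmgb1 (0.36) and Ing1 (0.36), but these members varied by only 0.40, 0.26 and 0.60 about their means. Tnc and Hapln2 had blanks and were not compared.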

How the data were processed

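The deposited table holds single-channel log2 values, 1 column for each channel of 11 two-colour Agilent arrays on 3 slides. The authors used limma, per the submitters' processing notes; background correction, normalization and genome build were not given in the sources used here. Column medians were 6.24 to 6.26, so the table cannot show a shift of the whole array. Blank probes numbered 151 to 593 on the 4 astrocyte arrays and 2249 to 10975 on the 7 microglia arrays; blanks were left out of the fits, so genes such as Tnc and Hapln2 rest on fewer arrays. The table gives no detection calls, and the number of arrays limits the precision.

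From these values, limma 3.58.1 (R 4.3.3) was fitted to the main probe of all genes over all 22 samples. Genotype effects used array as a fixed block, dye, and genotype nested in cell type; the cell type contrast used array as a random block (consensus correlation 0.64). P-values are two-sided and adjusted by Benjamini-Hochberg over all genes tested, with a threshold of 0.05; intervals are 95%. The labels put both samples of a number on 1 array. Same-array samples, centred within groups, correlated over genes at a median of 0.23 in astrocytes (4 pairs) and 0.47 in microglia (7 pairs), against -0.12 and -0.20 for samples of different arrays. The series' text calls the samples biological replicates; whether astrocyte and microglia samples share animals is not stated in the labels. Probes were named from the platform annotation: 33026 probes named a gene, 9994 had no named gene and were not used, and 22295 symbols matched RefSeq. Promoters are RefSeq sequences. Neighbouring genes were read from the RefSeq table.

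The fit was tested on simulated data, with the spread split evenly between array and sample. Of 100 genes changed by 1 log2, 59 were called in astrocytes and 71 in microglia. Of 100 changed by 2 log2, 93 and 98 were called. False calls numbered 5 in astrocytes and 10 in microglia. The changed genes, 100 of each size among 22485, all had values in every sample and were far fewer than the genes called in the data. The adjustment for many genes was therefore stricter in the simulation, and its shares do not carry over to the data. Changes of 1 log2 or less could still be missed. The members and gene lists were chosen with earlier results of these data known. Alternatives were other array, dye and slide terms, quantile normalization (limma), other probes, filters on low or blank genes, each array left out, and arrays matched in Eif2s3y (both samples at or above 7 log2, or both under it), the last chosen after seeing the data. Named genes are the members, up to 3 called genes of smallest adjusted p for each list and comparison, the 2 markers of highest mean for each marker list, and the 3 nearest profiles for each member; exceptions are stated. A few genes of the lists are not reported here.

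The marker lists for neurons and mature oligodendrocytes were also counted. In APP/PS1 astrocyte samples 1 of 9 neuron markers was higher and 2 lower. Of the 2 neuron markers of highest mean, Snap25 was lower (-0.50) and Pvalb was not called (-0.02, adjusted p = 0.908). There 1 of 7 oligodendrocyte markers was higher and 2 lower (Cnp -0.97, Mbp 1.19). In APP/PS1 microglia samples 1 neuron marker was higher and 5 lower, and 1 oligodendrocyte marker was higher and 0 lower.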

Additional observations from a re-analysis of the deposited data

Results flagged for a closer look

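In WT microglia, sample 4 had 4.29 log2 for Ncan, the lowest of the 7 and set apart from the others by the gap test used (38 groups of main-probe values were examined, of which chance flags about 1 in 20). In APP/PS1 astrocytes, sample 3 had 7.70 log2 for Vcan, the highest of the 4 and set apart in the same way.

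The genotype difference was lower in astrocytes than in microglia for Ncan, with astrocytes minus microglia at -1.15 log2 (adjusted p = 0.0071), and for Vcan, at -0.53 (adjusted p = 0.0197), tested by the interaction term. On Vcan probe 2 that term was -0.31 (adjusted p = 0.788) and on probe 3 it was -1.33 (adjusted p = 0.0466). On their main probes both genes were lower in APP/PS1 astrocytes on 4 of 4 arrays and in APP/PS1 microglia on 4 of 7 arrays. Ncan averaged 5.22 log2 in APP/PS1 and 5.37 in WT microglia, against 10.11 and 11.38 in astrocytes. The part of the low microglia signal in its interaction was not tested.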

How the results depend on the processing

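Of the 10 members, 6 were called in astrocytes, 3 without the array term (no replicate block) and 2 in a fit of astrocytes alone. Leaving out each array in turn gave 5 to 6, where 24.5% to 33.5% of all genes were called. In microglia 3 were called, and 0 without the replicate block, on slide 1 alone or on slide 2 alone. There, leaving out each array gave 2 to 3, where 14.7% to 20.7% of all genes were called. For the difference of effects 2 were called, 4 with array as a random block, 1 with microglia of slide 1 alone, 1 with those of slide 2, 1 on arrays matched in Eif2s3y and 0 without the replicate block; leaving out each array gave 1 to 4. Between cell types 7 were called, 4 among genes at or above the median gene, a filter that left 5 of the 10 members to test, and 5 to 8 with each array left out. For the difference and the cell types, the share over all genes in the random-block, median-filter and left-out fits is not given here. Fewer samples or residual degrees of freedom enter the cell-type, slide and matched-array fits, and the median filter tests fewer members; for the other changes the cause was not tested.

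Over all genes, 7515 calls in astrocytes became 2447 without the array term, 2819 in astrocytes alone and 4451 on matched arrays. The 4404 in microglia became 1184 without it, 1425 on slide 1 and 585 on slide 2. The 5952 for the difference became 1491, 3346 and 2190 in these settings and 3865 on matched arrays, and the 12493 between cell types became 7358 with slide as the random block.

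Signs turned only for values that were not called. On matched arrays Tnc was at 0.05 and Hapln2 at 0.20 in astrocytes, Acan at -0.01 in microglia, and the difference of effects was 0.64 for Tnc and 0.02 for Hapln2. In microglia Vcan was at -0.02 on slide 1, -0.75 on its probe 2 and -0.02 on its probe 3, Tnc at 0.41 on its probe 2, and Acan at -0.02 in microglia alone, -0.01 on slide 1 and -0.01 after quantile normalization. The Bcan difference of effects was 0.02 with slide 1. With each array left out, astrocyte values ran from -0.12 to 0.07 for Acan and -0.70 to 0.20 for Hapln2. Microglia values ran from -0.01 to 0.13 for Vcan, -0.04 to 0.06 for Acan and -1.04 to 1.00 for Tnc. Differences of effects ran from -0.45 to 0.20 for Bcan, -0.12 to 0.07 for Acan and -1.78 to 0.26 for Tnc.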

Other observations

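Between cell types, 45 of 83 other matrix genes were higher in astrocytes and 16 lower, where 55.8% of all genes tested were called. Of 17 other proteoglycans 13 were higher in astrocytes, with Cspg5 at 8.13 ± 0.30 log2 (adjusted p = 8.95e-15), Sdc2, a cell-surface heparan sulfate proteoglycan, at 8.14 ± 0.35 and Agrn, the agrin gene, at 4.35 ± 0.18. Of 14 lectican proteases and inhibitors 8 were higher, with the smallest adjusted p for the metalloprotease inhibitors Timp3 (8.57 ± 0.30) and Timp4 (5.95 ± 0.21), while Mmp2 was lower in astrocytes (-4.31 ± 0.19). Chondroitin sulfate synthesis was split, with 6 of 21 genes higher and 6 lower: Chpf (5.75 ± 0.21) and Csgalnact1 (6.48 ± 0.34), which build the chain, were higher in astrocytes, and Chst7 was lower (-2.65 ± 0.17). Of 18 matrix receptors and adhesion genes 12 were higher in astrocytes, among them Ptprf (5.92 ± 0.30), Egfr (6.64 ± 0.31) and Ncam1 (6.20 ± 0.40). All of these differences share the slide of the astrocyte arrays.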
